A study of Mus musculus with 12 samples.

Results

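The genes described here encode the core of the adherens junction, the cadherin-based belt that holds neighbouring epithelial cells together. They are 8 of 21887 protein-coding genes: the cadherins Cdh1 and Cdh3, the catenins Ctnnb1 and Ctnna1, the actin linkers Vcl and Afdn, and the nectins Nectin1 and Nectin4. A site was counted for a gene when it lay inside the gene's GRCm38 span on the gene's own strand, and neighbouring sites no more than 10 nt from each other were joined into a region, over the lists together. This gave 309 sites in 109 regions over the 8 genes.

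The data come from eCLIP, in which ultraviolet light ties a protein to the RNA it touches and the ends of the recovered cDNA mark the contact. The protein was ESRP1, an RNA-binding splicing regulator of epithelial cells, pulled down through a FLAG tag that all animals carried in the homozygous state (Esrp1FLAG/FLAG). Back skin epidermis was taken on postnatal day 1 and irradiated as a sheet of cells. The 12 libraries are 6 FLAG immunoprecipitations and 6 inputs, and the input has no antibody step. The authors called each of 3 site lists with input from a pair of biological replicates: 1 and 2 for list 1, 3 and 4 for list 2, and 5 and 6 for list 3. An animal without the tag was not analysed here.

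In an adherens junction the outer parts of cadherins on facing cells bind each other. Inside the cell the cadherin tail binds beta-catenin, which binds alpha-catenin, which in turn holds actin filaments and, under tension, vinculin. Nectins are immunoglobulin-type adhesion molecules of the same junction, and afadin ties them to actin. E-cadherin is found throughout the living epidermis and P-cadherin mainly in its basal layer. ESRP1 is known to bind UGG-rich RNA and to favour the epithelial splice forms of its targets. Its best-known junction target, Ctnnd1, is not among the 8 genes.

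Most of these genes had at least 1 contact region found in every list. Most of the regions were not shared, as 74 of 109 (67.9%) were in 1 list, against 60.7% over protein-coding genes. In the 3 lists together all 8 genes had a site, as did 34.8% of all protein-coding genes, and 6 of the 8 had a site in each list, against 19.9% of all. The same 6 genes, Cdh1, Cdh3, Ctnnb1, Nectin1, Nectin4 and Afdn, held at least 1 region found in all 3 lists, against 17.0% of all protein-coding genes. Ctnna1 and Vcl held none. The 6 genes held 14 such regions, 4 in Cdh1, 3 each in Nectin1 and Afdn, 2 in Ctnnb1 and 1 each in Cdh3 and Nectin4. At least 4 such regions were present in 1.08% of protein-coding genes, at least 3 in 2.63% and at least 2 in 6.48%. The median was 1.5 regions over the 8 genes and 0 over all protein-coding genes. Asking for lists 1 and 3 only, without list 2, gave 30 shared regions, and Vcl became the seventh gene. With that setting 20.8% of all protein-coding genes held a shared region.

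These counts are a description and no test was made, since the genes were chosen as a family of interest with earlier results known. Gene length moves with them: the median span was 68642.5 nt over the 8 genes and 17169 nt over all protein-coding genes. Among the 4378 longest genes, of 57148 nt and more, a region in all lists was present in 30.2%, and Cdh1, Ctnna1, Vcl, Nectin1 and Afdn belong there. RNA abundance was not measured, and among the 7617 genes with a site in any list 48.8% had such a region. In whole epidermis, fewer cells of a type and less RNA per cell cannot be told apart. The lists hold 73602, 40014 and 53864 sites and no read counts, so the depth behind a site is unknown.

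All 309 sites of the 8 genes lay on the plus strand and none on the minus strand. Of the 7 genes here with at least 10 sites, all 7 had them on a single strand, as had 85.5% of the 4023 protein-coding genes with as many. RefSeq's table of gene starts gives the plus strand for Ctnnb1, Vcl, Nectin4 and Afdn. For Cdh1, Cdh3, Ctnna1 and Nectin1 the strand was taken from the sites themselves. No site of either strand lay within 2000 nt outside either end of any of the 8 spans.

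**Figure D1:**
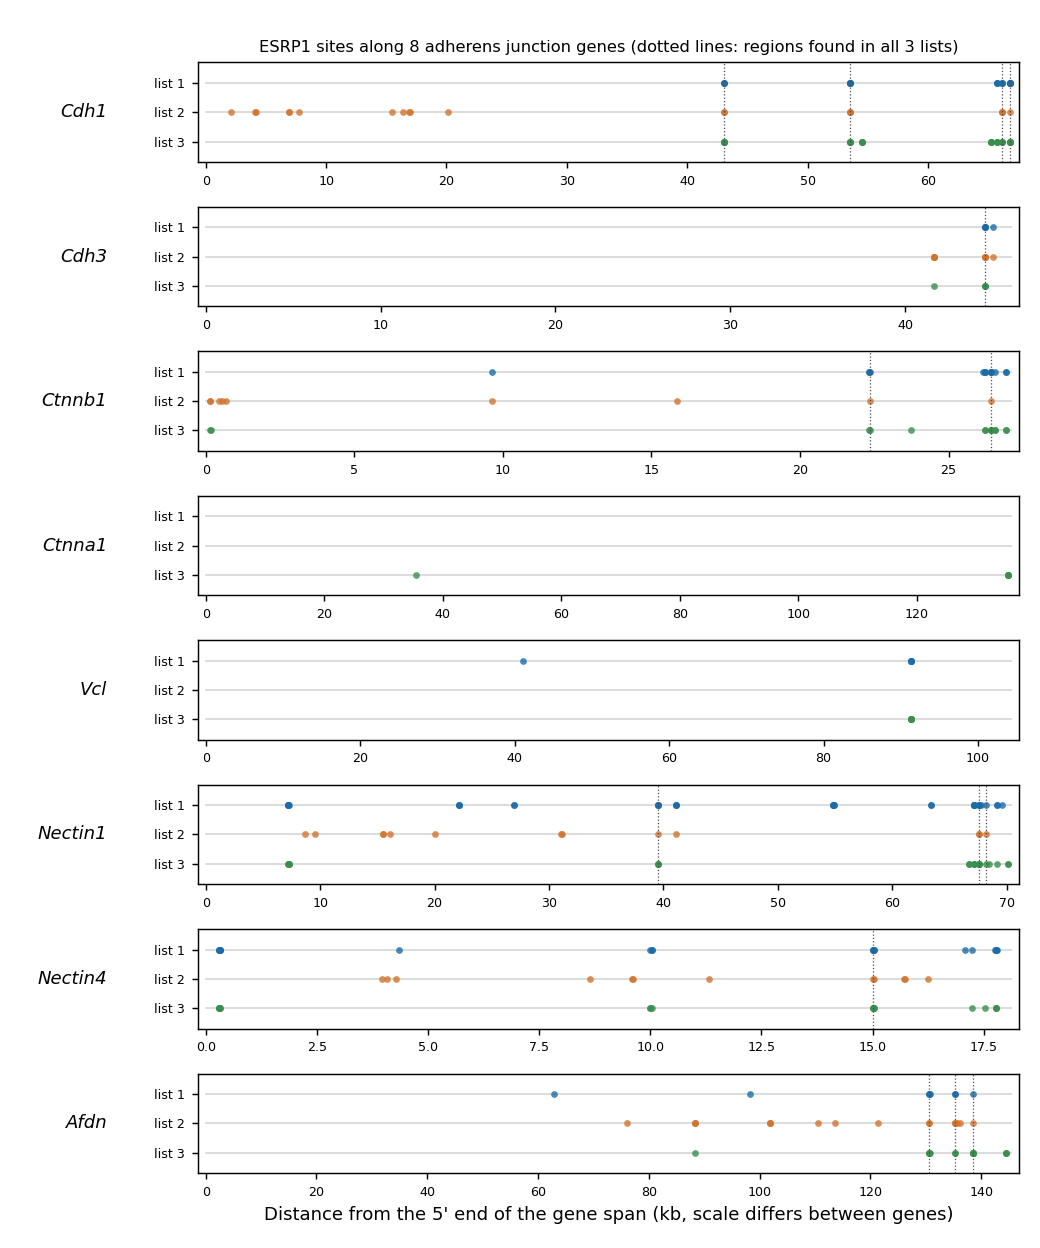
Positions of ESRP1 sites along each gene span, as distance in kb from its 5′ end, with 1 row per list and a dotted line at each of the 14 regions found in all 3 lists. The sites of Cdh3 lie near its 3′ end, and list 2 alone has sites in the first 20103 nt of Cdh1.

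In 1 stretch the printed reference reaches the contacts. The RefSeq table of gene starts holds 2 starts for Ctnnb1, at 120933400 and 120933578 on chromosome 9, and 4 sites fell between them. The stretch is shown because it gives the bases under contacts at the 5′ end of the beta-catenin RNA. It reads 5′ to 3′ on the plus strand of GRCm38.p6, with the 4 deposited site positions in capitals.
Ctnnb1 chr9:120933542-120933570: cgGgGaggcggagacggaGcacggtgGgc
All 4 site nucleotides are G, in a stretch of 29 nt that is 58.6% G. The first pair of capitals are sites of list 2 and the last pair sites of list 3, so no nucleotide here was found by more than 1 list. The sites lay 144 to 168 nt after the upstream start and 10 to 34 nt before the downstream one, so of these starts only the upstream one gives RNA that holds them. The stretch has 1 TGG and 1 GGT, which share their T, and 53.2% of the 32851 RefSeq start windows hold TGG or GGT on the gene's strand at the same place and length. The other windows of the 8 genes in that table, for Vcl, Nectin4 and Afdn, hold no site.

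E-cadherin, encoded by Cdh1, had the most regions found in all 3 lists. Its span covers chromosome 8, 106603350 to 106670247, and held 20, 20 and 30 sites in lists 1, 2 and 3. Relative to the size of the lists this was 2.72, 5.00 and 5.57 sites per 10000, lowest in list 1. The summed site count ranked 88th among protein-coding genes. Of 17 regions, 4 were in all lists, 1 was in lists 1 and 3, 10 were in list 2 alone and 2 in list 3 alone.

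The 4 shared regions of Cdh1 had the same highest-scoring nucleotide in every list. The score is the authors' own value per site, without a stated scale, and was ranked only within a list. The first region, 106646391 to 106646402, peaked at nucleotide 106646392 with scores of 80.2, 33.7 and 51.7, at percentiles 92.2, 81.0 and 83.2 of lists 1, 2 and 3. The second, 106656851 to 106656860, peaked at 106656852 with 119, 53.2 and 96.4, at percentiles 96.2, 89.7 and 94.3. The third, 106669489 to 106669491, held exactly the same 3 nucleotides in each list and peaked at 106669490 with 67.5, 33.2 and 73.4. The last, 106670157 to 106670167, ended 80 nt before the end of the span and had 6, 1 and 6 sites. Its single list 2 site, at 106670162, stood at percentile 48.3 of that list, against 88.8 in list 1 and 84.2 in list 3.

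The 3′ end of Cdh1 was dense with contacts. The last 2000 nt, 2.99% of the span, held 32 of its 70 sites, with 12, 4 and 16 in lists 1, 2 and 3. Besides the last pair of shared regions, this stretch held a region at 106669080 to 106669084 found in lists 1 and 3, at percentiles 88.4 and 87.4, and a region of list 3 alone. Every list took part, and list 2 had the fewest sites there. The last 1000 nt alone held 22 of the 70 sites (31.4%). Over protein-coding genes of at least 2000 nt, that window held 19.1%, 14.9% and 20.6% of sites in lists 1, 2 and 3.

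The first part of Cdh1 was marked in list 2 alone. The 10 regions of list 2 alone lay 2090 to 20103 nt from the 5′ end, where lists 1 and 3 had no site. Their score percentiles ran from 17.8 to 47.2, below the list 2 percentile of each of the 4 shared regions. In lists 1 and 3 the first site of the gene lay in the first shared region, which began 43041 nt into the span.

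P-cadherin, encoded by Cdh3, had far fewer contacts and all of them near its 3′ end. Its span on chromosome 8, 106510852 to 106556911, held 5, 9 and 4 sites, all of which lay in the last 5000 nt, 10.9% of the span. Its 1 region in all lists, 106555427 to 106555438, had 4, 4 and 2 sites. That region peaked at 106555429 in each list, with scores of 70.9, 62.5 and 81.1 at percentiles 90.8, 91.9 and 92.0. The ranks of the lists lay close together. A weak pair of nucleotides at 106555869 and 106555870 had 1 site each in lists 1 and 2. Without list 1 or without list 3, Cdh3 had 2 shared regions instead of 1.

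Cdh3 lies upstream of Cdh1 on the same chromosome, and the 46438 nt between the spans held 3 sites on either strand. The cadherins differed in how far along the gene their sites reached. Cdh1 carried a mean of 3.49 ± 0.863 sites per 10 kb of span (SD, n = 3 lists), against 1.30 ± 0.574 in Cdh3. The values of the lists did not overlap between the 2 genes. They were not scaled to list size, so the SD includes differences in list size.

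Beta-catenin joins the cadherin tail to alpha-catenin and is also the transducer of Wnt signals. Its RNA was marked at both ends, but no region near the 5′ end was found in more than 1 list. The span of Ctnnb1 on chromosome 9, 120933400 to 120960507, held 15, 9 and 14 sites. The last 1000 nt, 3.69% of the span, held 21 of the 38 sites, with 11, 1 and 9 in lists 1, 2 and 3. List 2 had 1 of its 9 sites there, against 11 of 15 in list 1 and 9 of 14 in list 3. Over protein-coding genes of at least 2000 nt, such a window held 19.1%, 14.9% and 20.6% of sites in lists 1, 2 and 3.

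The main shared region of Ctnnb1 was 120959831 to 120959842, ending 665 nt before the end of the span. It peaked at 120959834 in all 3 lists, with scores of 70.2, 25.1 and 64.8 at percentiles 90.6, 72.9 and 88.1. In this last 1000 nt, 3 more regions were found in lists 1 and 3 only, at 120959613 to 120959616, 120959965 to 120959968 and 120960342 to 120960343. In lists 1 and 3 they stood at percentiles 87.1 and 88.5, 78.3 and 76.4, and 84.4 and 84.5, beside the 90.6 and 88.1 of the shared region. The other region in all lists was a single nucleotide, 120955765, with low scores of 2.49, 1.31 and 0.209. It was lost among the 50% of sites with the highest scores, where Ctnnb1 kept 1 region. Without list 2, Ctnnb1 had 6 shared regions instead of 2.

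List 2 had most of its own regions in the 5′ part of Ctnnb1. It had 5 regions of its own, of which 4 lay within 675 nt of the 5′ end, including the G-rich stretch shown above. The strongest of them, at 120933940, stood at percentile 78.0 of list 2. List 3 had 1 region there, at percentile 56.4, and list 1 had none.

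Alpha-catenin, the link from the cadherin complex to actin, was the least marked of the 8 genes. Ctnna1, spanning 135875 nt of chromosome 18 from 35118902 to 35254776, had 0, 0 and 5 sites. Of these, 4 formed a region at 35254200 to 35254203, which ended 573 nt before the end of the span and reached percentile 75.0 of list 3. No region was shared by any pair of lists.

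Vinculin, which strengthens the junction's hold on actin and also sits at focal adhesions, had 6, 0 and 5 sites in Vcl, on chromosome 14 from 20929383 to 21033676. Nearly all lay in 1 region, 21020737 to 21020753, with 5 sites in list 1 and 5 in list 3. Its highest score lay at 21020737 in both, at percentiles 87.6 and 71.0, although in list 3 the next nucleotide had the same score. List 2 had no site anywhere in Vcl, so this region is not among the 14.

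**Figure D2:**
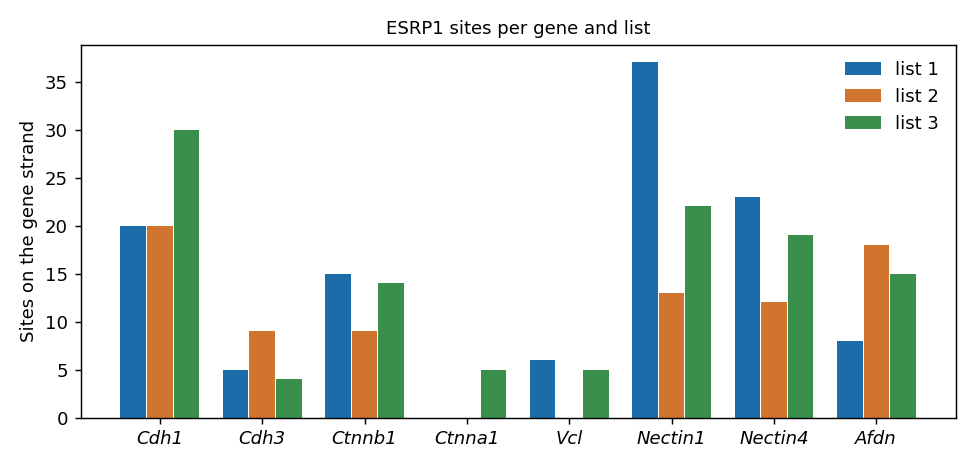
Number of sites on the gene strand in each of the 3 lists for the 8 genes. Nectin1 has 37 sites in list 1 and 13 in list 2, whereas Cdh3 and Afdn have their highest count, 9 and 18, in list 2.

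Nectin-1, encoded by Nectin1, had the most sites of the 8 genes in list 1, whereas Cdh1 had more in lists 2 and 3. Its span on chromosome 9, 43737075 to 43807461, held 37, 13 and 22 sites, or 5.03, 3.25 and 4.08 per 10000 sites of each list. The summed count ranked 77th among protein-coding genes. Of 28 regions 3 were in all lists, 5 in lists 1 and 3 only, 1 in lists 1 and 2 only, and 19 in a single list.

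The strongest shared region of Nectin1 was 43804678 to 43804683, ending 2778 nt before the end of the span. It had 3, 2 and 4 sites and stood at percentiles 90.9, 80.6 and 88.3. The other shared regions were looser. At 43776572 to 43776590 the highest nucleotides of the lists lay up to 13 nt apart and no nucleotide was common to all lists. At 43805256 to 43805266 each list had 1 site, with percentile 2.70 in list 2. Where regions were joined and shared within 1 nt, and also among the 50% of sites with the highest scores, Nectin1 kept 1 shared region.

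A strong Nectin1 region was missing from list 2. The region 43804232 to 43804238 reached percentiles 91.9 and 87.8 in lists 1 and 3. Without list 2 the gene had 8 shared regions instead of 3. List 2 had 7 regions of its own, which lay 8642 to 31166 nt from the 5′ end and reached at most percentile 50.3. Long noncoding RNA genes overlap the span, but RefSeq places them on the minus strand, where no site was found.

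Nectin-4, encoded by Nectin4, held the strongest contacts of the family in the shortest gene. Its span on chromosome 1, 171370173 to 171388287, is 18115 nt long and held 23, 12 and 19 sites. The region found in all lists, 171385185 to 171385196, had 5, 2 and 5 sites with highest scores of 135, 80.7 and 222. These stood at percentiles 97.1, 94.7 and 99.2, giving the highest mean percentile of the 14 regions, 97.0.

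Both ends of Nectin4 were marked in lists 1 and 3 but not in list 2. Near the 3′ end, 171387949 to 171387959 had scores of 220 and 168 at percentiles 98.9 and 98.3, ending 328 nt before the end of the span. Near the 5′ end, 171370481 to 171370496 began 308 nt into the span and had 7 and 4 sites at percentiles 91.2 and 86.6. List 2 had no site in either region and 9 regions of its own elsewhere in the gene. Without list 2, Nectin4 had 6 shared regions instead of 1, and joining within 1 nt split its shared region into 2.

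Afadin, encoded by Afdn, had its lowest site count in list 1, where Nectin1 and Nectin4 had their highest. The span on chromosome 17, 13760391 to 13905798, is the longest of the 8 at 145408 nt and held 8, 18 and 15 sites. Relative to list size this was 1.09, 4.50 and 2.78 per 10000, against 3.12, 3.00 and 3.53 in Nectin4, which is nearly even over the lists. The 3 shared regions of Afdn ended 14731, 10072 and 6955 nt before the end of the span. The strongest, 13891058 to 13891067, peaked at 13891059 in every list with scores of 73.1, 53.9 and 76.7, at percentiles 91.1, 90.0 and 91.0. The others were 13895724 to 13895726, at percentiles 70.3, 40.2 and 52.3, and 13898842 to 13898843, at percentiles 72.1, 64.2 and 83.6. In this gene no region was found in lists 1 and 3 only, and 7 were found in list 2 alone.

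**Figure D3:**
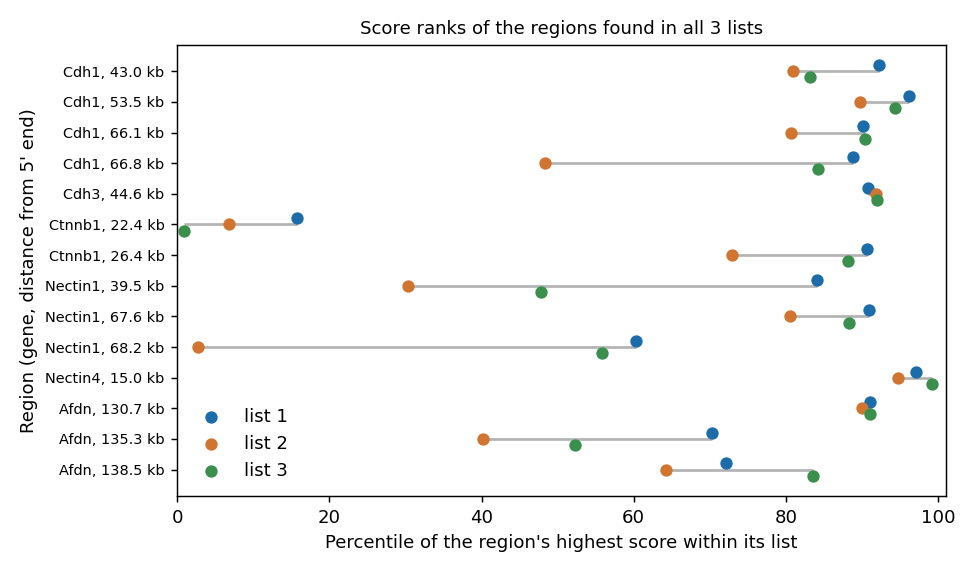
Percentile, within its list, of the highest score of each of the 14 regions found in all 3 lists, with 1 point per list and a line spanning the lists. Regions are named by gene and distance from the 5′ end in kb. The Nectin4 region and 1 region each of Cdh1, Cdh3 and Afdn lie at percentile 89.7 or above in each list, and 1 Ctnnb1 region lies at 15.8 or below.

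Per length of gene, Nectin4 carried the most sites, 9.94 ± 3.07 per 10 kb of span (mean and SD, n = 3 lists). It was followed by Ctnnb1 with 4.67 ± 1.19, Cdh1 with 3.49 ± 0.863 and Nectin1 with 3.41 ± 1.72. The lists' values for these last 3 genes overlapped, whereas the lowest value of Nectin4, 6.62 in list 2, exceeded the highest of the others, 5.53 in Ctnnb1. Cdh3 had 1.30 ± 0.574, Afdn 0.940 ± 0.353, Vcl 0.352 ± 0.308 and Ctnna1 0.123 ± 0.212, and each of these neighbours overlapped. Spans include introns, and exons could not be told from introns with the annotation used here. These values were not scaled to list size, so the SD includes differences in list size.

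Where all lists agreed on a region, they mostly agreed on its strongest nucleotide. In 10 of the 14 regions (71.4%, 95% exact binomial interval 41.9 to 91.6) the lists had a highest-scoring nucleotide in common, against 36.9% of the 6091 such regions in protein-coding genes. Nucleotides tied for the highest score of a list all counted, which decided 1 of the 10, the strongest region of Nectin1. Another of the 10, the Ctnnb1 region at 120955765, is 1 nt long, so its lists could not differ. In 12 of 14 the highest nucleotides lay at most 2 nt apart, against 64.8%. The exceptions were the looser pair of Nectin1. The intervals cover counting error only, and regions of 1 gene share its RNA.

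Regions found in more lists also had higher score ranks. The median of a region's mean percentile was 84.7 in the 14 regions of all lists and 33.7 in the 74 regions of 1 list, with the 21 regions of 2 lists between them. Over all protein-coding genes the medians were 73.2 for all lists and 29.8 for 1 list. List 2 gave the lowest percentile in 12 of the 14 regions, and the same count was not made over protein-coding genes. Single-list regions were mostly small, with 55 of 74 made of 1 site.

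The share of regions found in all lists was 12.8% over the 8 genes (14 of 109, 95% exact binomial interval 7.20 to 20.6), against 18.9% of the 32232 regions in protein-coding genes, which lies inside that interval. Without list 2 the share over the 8 genes was 42.9%, as regions of list 2 alone then drop out and only 2 lists must agree. That share was not computed over protein-coding genes. There 6091 regions were in all lists, 3523 in lists 1 and 3 only and 7113 in list 2 alone. Regions of list 2 alone made up 36.7% (40 of 109, interval 27.7 to 46.5), against 22.1% over protein-coding genes (interval 21.6 to 22.5). Of these 40 regions 35 were single sites and 4 lay in the last 5000 nt of a span. They numbered 10 in Cdh1, 9 in Nectin4, 7 each in Nectin1 and Afdn, 5 in Ctnnb1 and 2 in Cdh3.

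The complement was a group of regions that list 2 lacked. Of the 21 regions found in 2 lists, 16 were in lists 1 and 3 (76.2%, interval 52.8 to 91.8), against 53.6% over protein-coding genes. They lay in Nectin1 (5), Nectin4 (5), Ctnnb1 (4), Cdh1 (1) and Vcl (1), 10 of them in the last 5000 nt of the span. In 8 of these 16 the mean percentile exceeded 75. Neither this count nor that in the last 5000 nt was made for such regions over protein-coding genes. List 2 is a single list of 2 replicates and the smallest of the 3, and the part of its size or calling in these patterns was not tested.

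Toward the 3′ ends the lists differed in these genes. The last 1000 nt of the 8 spans, 1.30% of their length, held 27 of 114 sites in list 1 (23.7%), 5 of 81 in list 2 (6.17%) and 31 of 114 in list 3 (27.2%). Over protein-coding genes of at least 2000 nt the same window held 19.1%, 14.9% and 20.6% of sites. Of the 14 shared regions 3 lay there, in Cdh1 and Ctnnb1 (21.4%, interval 4.66 to 50.8), against 21.1% of shared regions over such genes. Within the last 5000 nt lay 8 of 14 (57.1%, interval 28.9 to 82.3), in Cdh1, Cdh3, Ctnnb1, Nectin1 and Nectin4, against 40.3% over genes of at least 10000 nt, which lies inside that interval.

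**Figure D4:**
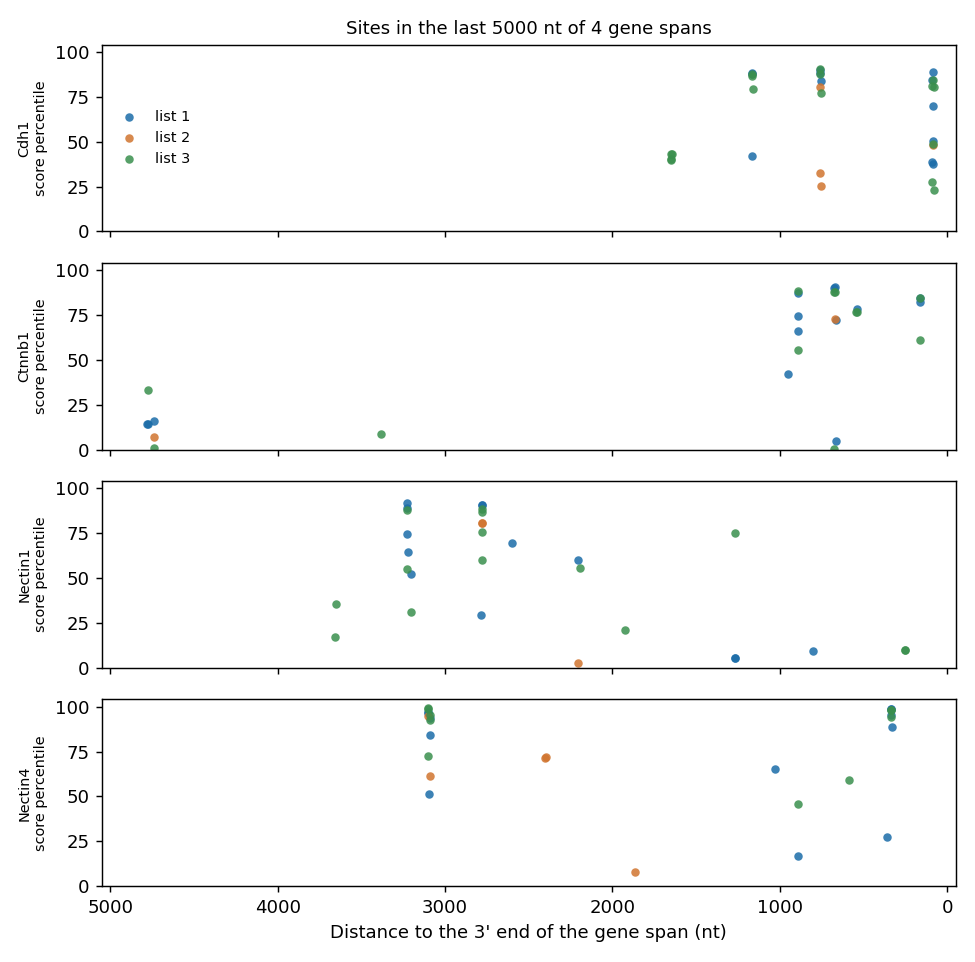
Sites in the last 5000 nt of Cdh1, Ctnnb1, Nectin1 and Nectin4, with distance to the 3′ end of the span in nt on the horizontal axis and the score percentile of each site within its list on the vertical axis. Sites of lists 1 and 3 coincide at several distances where list 2 has none, such as 334, 337 and 338 nt before the end of Nectin4.

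Other genes of the adherens junction were also often marked. Of 48 further junction genes, all matched in the annotation, 25 (52.1%) had a region in all 3 lists, against 17.0% of all protein-coding genes, and their median was 1 such region. A site was present in 42 of the 48, and among all genes with a site 48.8% had such a region. Most of the 48 spans are of 57148 nt or more, and 30.2% of genes that long had such a region. The list was drawn up with earlier results known and is no independent support. Jup, which encodes plakoglobin, the beta-catenin relative shared with desmosomes, had 9 regions with 34, 30 and 29 sites. Lpp, a LIM-domain protein of actin-linked adhesions, had 6 regions with 43, 24 and 32 sites. Wasf2, an activator of branched actin assembly, had 4 with 17, 13 and 12 sites. Ctnnbip1, an inhibitor of beta-catenin's binding to its transcription partners, had 3 with 28, 25 and 25 sites, and the receptor phosphatase gene Ptprf had 2 with 22, 11 and 16 sites. No site was counted in Nectin3, Vezt, Pdzd11, Sorbs3 or Hip1 on either strand, or in Zyx on the gene's strand, although 13 lay on its opposite strand.

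The other classical cadherins were near all protein-coding genes in the share with a region found in all lists. A region in all lists was present in 2 of 15 (13.3%), against 17.0% of all protein-coding genes. A site was present in 6 of 15, against 34.8% of all. Most of these 15 genes have spans of 57148 nt or more, and 30.2% of genes that long had such a region. Cdh8 and Cdh18 had 1 such region each. In Cdh18 31 further sites lay on the opposite strand. The 9 without a site in any list were Cdh2, the N-cadherin of neural and mesenchymal cells, Cdh5, the cadherin of endothelium, Cdh11, a cadherin of fibroblasts, and Cdh9, Cdh10, Cdh12, Cdh15, Cdh22 and Cdh24. A gene without a site may be unbound or little expressed in these cells, and the lists cannot tell these apart.

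Marker genes of the skin's cell types were counted in the same way, to be read against the 34.8% of all protein-coding genes with a site and the 17.0% with a region in all lists. Of 12 keratinocyte markers 10 had a site and 6 (50%) a region in all lists, led by Krt5 with 7, Perp with 4, Krt15 and Dsp with 3 each and Trp63 with 2, but Krt1 and Krt14 had no site. Of 7 melanocyte markers 3 had a site and 1 (14.3%) a region in all lists, Mitf with 2. Of 7 dermal fibroblast markers 2 had a site and 0 such a region. Of 5 immune markers 1 had both, Csf1r with 2 regions. Of 4 endothelial markers none had a site. With so few genes, 1 marker of the melanocyte list and 1 of the immune list are near the share over all genes. Outside the keratinocyte list, the markers without a site included Tyr, Pdgfra, Ptprc and Pecam1. Dct had 3, 2 and 0 sites, Pmel 1, 0 and 0, Col3a1 1, 3 and 1, and Col1a2 1, 1 and 0.

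Genes outside these lists with the most similar site counts were found for Cdh1 and Nectin1, as the summed difference in sites over the 3 lists among genes with the same number of shared regions. For Cdh1, of 130 such genes, Tpd52 was closest with 26, 20 and 35 sites (summed difference 11), and Eif4b was also among the nearest (15). For Nectin1, of 333 genes, Actr2 was closest with 38, 14 and 23 sites (summed difference 3), then Lcor (7) and App (8). With 3 lists as the points compared, this likeness is a description.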

How the data were processed

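The authors deposited 3 lists of strand-specific sites of 1 nt, each with a score of unstated scale, called with input on 2 replicates together, per the file headers. Tools listed in the submitters' processing notes, with no role, are HISAT2 2.1.0, cutadapt 1.16 and HOMER, and builds are GRCm38 and mm10. PureCLIP is named in the labels. How reads were trimmed, deduplicated and placed when they aligned to several loci is not given in these sources, and such steps can add or remove sites in repeated sequence. Since each list pools a pair of replicates, variation between single libraries cannot be seen.

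Spans and strands came from RefSeq on GRCm38.p6, with strand known for 17492 of 21887 protein-coding genes and otherwise taken from the majority of sites. Where it was known, the majority strand was the same in 89.6% of 3202 genes with at least 10 sites. Coordinates are 1-based. Pooled sites separated by no more than 10 nt on 1 strand formed a union region, placed by its middle and counted as found in all lists when each list had a site in it. The counting was tested on simulated data. Python 3.11.15 with pandas 2.3.3, numpy 2.4.6, scipy 1.17.1 and matplotlib 3.10.9 was used. Intervals are exact binomial (Clopper-Pearson, 95%) and cover counting error only.

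Members and gene lists were chosen with earlier results of these data known. Named genes were the 8 members, up to 5 genes of each other list with at least 2 regions in all lists, and the 3 nearest in site counts to each of the 2 members with most such regions, of which 1 is not reported here. Genes without a site could also be named, and in the marker lists only some were. Cdh8, Cdh18 and the markers with few sites were named after their values were seen. The planned motif share at regions was not run, because genome sequence was not used here.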

Additional observations from a re-analysis of the deposited data

How the results depend on the processing

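The 8 genes' counts rest on which lists must agree and on the score. With the 50% of sites with the highest scores, the regions in all lists fell to 9, against 14 with all sites, and the sites to 70, 25 and 60 in lists 1, 2 and 3, against 114, 81 and 114. Leaving out 1 list at a time gave 16 to 30 regions and a share of regions in all remaining lists of 17.0% to 42.9%, with the highest values without list 2. With 1 list left out fewer lists must agree, and that share was not computed over protein-coding genes. The number of these genes with a shared region ran from 6 to 7 over those settings. The share of all protein-coding genes with one ran from 12.1% to 21.0%, against 17.0% with all sites and lists. Joining within 1 or 50 nt, counting either strand, leaving out sites under another gene and extending spans by 1000 nt kept the total within a factor of 1.5 of the main value. The 8 genes had no site on the minus strand or just outside their spans. Counting either strand or extending spans therefore could not change their values. Nor could joining or leaving out another list change the site count of a list. Of the recomputed values 127 stayed within that factor or their interval and 16 did not, and the 127 include such fixed values. Windows of 500 and 2000 nt at the 3′ end gave 7.14% and 28.6% of shared regions, inside the interval of the 1000 nt value. No paired analysis was possible because the lists hold no values per replicate and no comparison of immunoprecipitation with input can be made from them. Motif windows were not run. Depth is unknown, so a missing site was not called rather than shown absent.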
